A study of Saccharomyces cerevisiae with 112 samples.

Results

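The COS genes are a family of subtelomeric yeast genes, 10 of which were listed by systematic name for this description: COS1 (YNL336W), COS2 (YBR302C), COS3 (YML132W), COS4 (YFL062W), COS5 (YJR161C), COS6 (YGR295C), COS7 (YDL248W), COS8 (YHL048W), COS10 (YNR075W) and COS12 (YGL263W). Members were taken from the deposited table by that name alone, without regard to their values. Of the 10 genes, 7 had a row among the 6319 genes of the table and 6 (COS1, COS4, COS7, COS8, COS10 and COS12) passed the filter on low values, which kept 5567 genes. COS2, COS5 and COS6 were not analysed here. COS3 was above 0 in 5 libraries of the whole series with at most 1 read, and it entered no test.

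COS proteins are membrane proteins that span the bilayer several times. In budding yeast they carry ubiquitin and assist, in trans, the sorting of cell surface proteins into multivesicular bodies for breakdown in the vacuole. Most family members lie close to chromosome ends, where the Sir2, Sir3 and Sir4 proteins form silent chromatin, Sir2 as the histone deacetylase and Sir3 and Sir4 as structural subunits.

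The libraries are RNA-seq of 8 strains at 7 times, with 2 libraries for each strain and time: midlog growth, starvation after 72 h at 30 °C, 5, 30 and 90 min after release into fresh medium, and after 1 and 2 population doublings. The wild types were wt1, an S288C derivative (NKI12318, MATa, with bar1::HisG, HIS3 and the transgene Pgpd_CRE_EBD78, and with ura3d0, trp1d63, met15d0, lys2d0, leu2d0 and his3d200), and wt2, a relative of BY4741 (JOY1, MATa, bar1D:HIS5, with ura3D, leu2D, his3D and met15D). The deletions sir2D and sir4D came from a KanR deletion library and sir3D was MRL5.1 (sir3-delta:KANR), all MATa with ura3, leu2, his3 and met15 deleted. None of the 3 deletion genotypes lists the bar1 change that both wild types carry. Sir3_3xT7 and Sir3_3xHA, called hypomorphs in the labels, carried a loxP tag switch cassette on the C-terminus of Sir3 in wt1 and were isolated after and before the estradiol-induced switch. The strain oeSir3 was a W303 strain (THC70, sir3∆::HIS3, with mat∆::TRP1, hmr::rHMRa, hml∆::kanMX, bar1∆::hisG, lys2∆ and mutations in TRP1, LEU2, HIS3, CAN1 and ADE2) with Sir3HA at ura3-1 under a GAL promoter, given as GAL1 or GAL10, and it was grown in YPGal where the other strains were grown in YPD. A series below means the 7 time points that share a strain and a replicate number, 16 in all. Whether the replicates are separate cultures is not said in any label, so p-values reflect only the variation among these samples, and that may be technical.

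Over all 6319 genes, the median gene had 4 to 119.5 reads of coverage per library (median 52.5), and 6 libraries lay under 10 reads. Apart from these read depths, the median gene below is that of the 5567 genes that passed the filter. SIR2 was at 0 in all 14 libraries of sir2D, SIR3 in all 14 of sir3D and SIR4 in all 14 of sir4D. SIR3 in oeSir3 ran from 93.5% to 2010% of the library's median gene, against 7.41% to 60.9% in the wild types. The deposited value that stands for no coverage sorts the series into groups, called batches here and inferred from that value alone. Replicate 1 of the wild types, the tagged strains, sir2D and sir3D had a separate value in each library, and each of the other 10 series held 1 value shared by its own 7 libraries; these are called the separate and the shared batch. Depth at the median of all 6319 genes ran from 4 to 57 reads in the separate batch and from 9 to 119.5 in the shared batch. What sets the batches apart was not tested. COS1 differed between these batches: over the 6 strains with a series in each, its log2 level centred on the median gene averaged 1.06 (SD 0.81, n = 6) in the separate batch and -0.51 (SD 0.79, n = 6) in the shared batch. For the other 5 tested members the separate batch minus the shared batch was -0.04 to 0.27.

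How well a read can be assigned differs between members, so the coding sequences of the 10 members and of COS9, a relative outside the list, were compared first in the RefSeq R64 genome. COS2 and COS3 are identical over their 1140 bases, and COS3 is a gene known for its part in sodium tolerance. COS1 is 96.1% identical to COS3 and 95.8% to COS4, and COS5 and COS7 are 95.6% identical. COS8 is 82.3% to 86.6% identical to COS1 to COS7, and COS10 and COS12 reach at most 63.1% and 61.0% with any other gene compared. The stretch below is the 60-base window with the most positions at which any of COS1, COS4, COS7 or COS8 differs from COS3. Only windows free of gaps in every gene compared were eligible. The window shows only part of what a short read can separate, since COS1 and COS4 differ from COS3 elsewhere. It covers bases 708 to 767 of the coding sequence in COS3, COS1, COS4, COS7 and COS8, 690 to 749 in COS10 and 705 to 764 in COS12, read 5′ to 3′ on the coding strand, with bases that differ from COS3 in capitals.
COS3: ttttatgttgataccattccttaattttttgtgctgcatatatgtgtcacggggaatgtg
COS1: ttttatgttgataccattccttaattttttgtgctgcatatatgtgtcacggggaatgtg
COS4: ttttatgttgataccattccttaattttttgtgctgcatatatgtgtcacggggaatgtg
COS7: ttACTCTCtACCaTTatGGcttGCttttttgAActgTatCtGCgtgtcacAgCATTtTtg
COS8: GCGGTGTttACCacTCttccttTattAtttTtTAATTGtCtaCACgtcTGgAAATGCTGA
COS10: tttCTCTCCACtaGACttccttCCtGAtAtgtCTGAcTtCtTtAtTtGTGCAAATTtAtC
COS12: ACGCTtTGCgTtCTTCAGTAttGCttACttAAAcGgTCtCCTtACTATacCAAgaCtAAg

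COS1 and COS4 did not differ from COS3 at any base of this window, COS7 differed at 27 (as did COS5, whose window is the same as that of COS7), COS8 and COS10 at 36 each and COS12 at 41. Over the whole coding sequence, every 50-base window of COS10 and COS12 occurred once in the genome. The share was 82.6% for COS8, 61.7% for COS6, 33.4% for COS7, 28.9% for COS1, 27.7% for COS4, 17.0% for COS5 and 0 for COS2 and COS3. The longest run shared with another place was 21 bases for COS12, 48 for COS10 and 101 for COS8, but 352 for COS4, 329 for COS7 and 327 for COS1. Which reads the authors assigned to near-identical copies is not given in the sources used here, so values of COS1, COS3, COS4 and COS7 are uncertain as to gene, while those of COS10 and COS12 rest on sequence of their own.

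**Figure D1:**
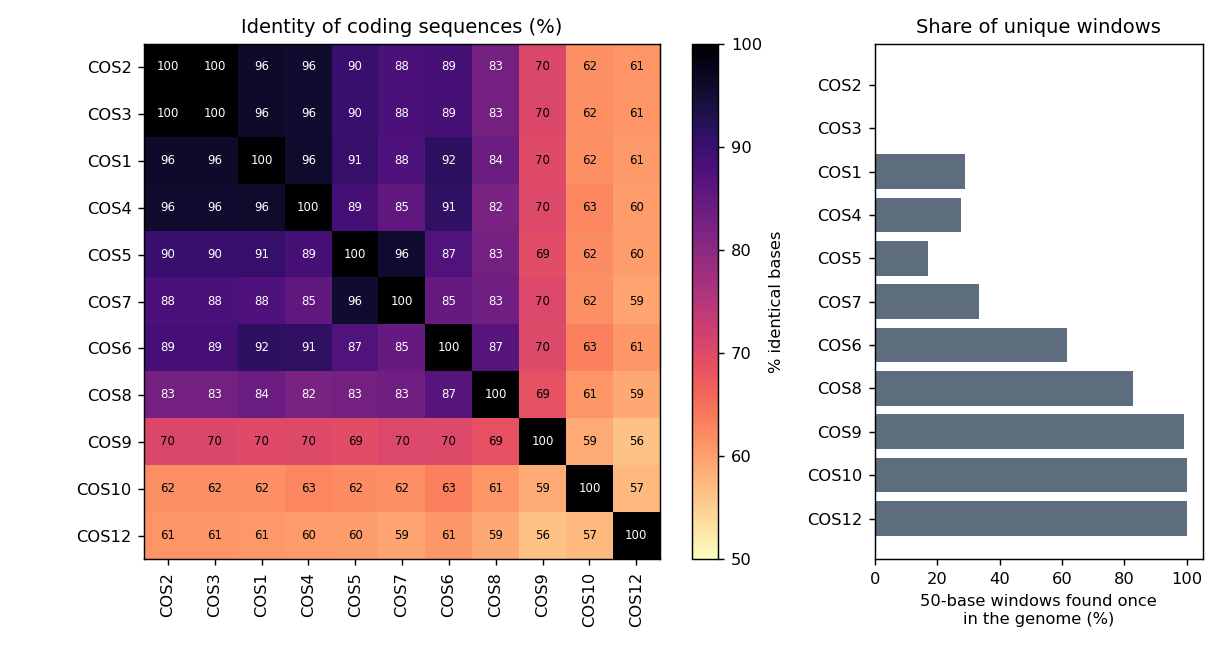
Identity of the coding sequences of 11 COS genes (left, percent identical bases in pairwise alignments) and the percentage of 50-base windows of each gene that occur once in the R64 genome (right). COS2 and COS3 have no such window, COS1, COS4, COS5 and COS7 have 17.0% to 33.4%, and in COS10 and COS12 every window occurs once.

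Levels differed widely within the family. Values are the median read coverage of a coding sequence, a level per position and so comparable between genes of different length, given here as a percentage of the same library's median gene. By mean centred log2 level over all libraries, COS8 lay at percentile 68.8 of the 5567 genes, COS1 at 54.6, COS12 at 23.4, COS7 at 13.4, COS10 at 10.8 and COS4 at 1.67. In wild-type libraries COS8 ran from 66.3% to 548% with a median of 139% (n = 28), COS1 from 11.4% to 371% with a median of 60.3%, COS10 from 4.35% to 43.3% with a median of 29.1% and COS7 from 3.70% to 102% with a median of 20.6%. COS12 ran from 0 to 60% with a median of 4.32% and was at 0 in 8 of the 28 libraries, and COS4 was at 0 in 20 of them. The wild-type ranges of neighbours in the order COS8, COS1, COS10, COS7, COS12, COS4 all overlapped.

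COS12 was the member that changed most with strain. It was high in all libraries of the 3 sir deletions and of both tagged Sir3 strains, near 0 in most wild-type libraries, and at 0 in every oeSir3 library. In the sir deletions COS12 ran from 64.1% to 264% of the median gene with a median of 143% (mean 141%, SD 39.8, n = 42), and in the tagged strains from 60.9% to 249% with a median of 140% (mean 141%, SD 48.6, n = 28). The wild types had a mean of 9.24% (SD 14.7, n = 28). Every deletion library and every tagged library lay above the highest wild-type value of 60%, which was wt1 replicate 1 at midlog. How many of all genes separate so was not counted. In reads, COS12 had 4 to 191 in the deletions and 0 to 35 in the wild types.

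**Figure D2:**
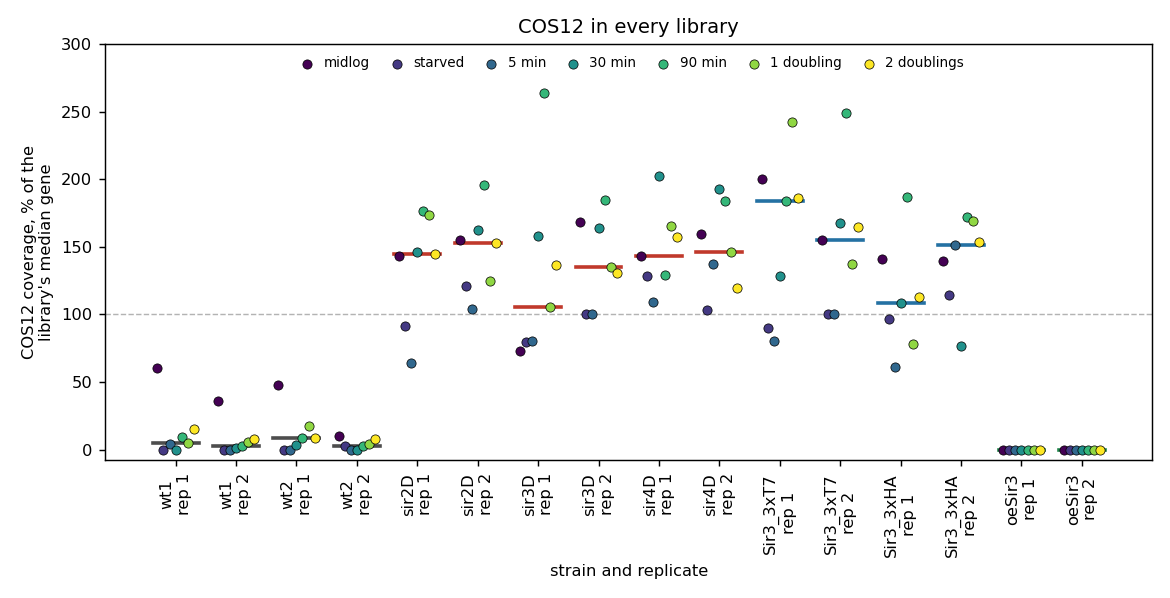
COS12 coverage as a percentage of the library's median gene (y axis) in each library, by strain and replicate, with points coloured by time and a line at the median of each series. The deletion and tagged series lie between 60.9% and 264%, the wild types between 0 and 60% with their highest values at midlog, and both oeSir3 series at 0.

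Strains were compared on series averaged over the 7 times, with each library centred on its median gene, by limma over 16 series, with p-values adjusted by Benjamini-Hochberg across all 5567 tested genes. A gene passed the test at an adjusted p under 0.05 and a difference of at least 1 on the log2(coverage + 0.03) scale, which understates the change of genes near 0 such as COS12 in the wild types. COS12 was higher than the wild types by 3.56 ± 0.31 (log2 ± SE) in sir2D, where 0.108% of all genes passed as higher, by 3.47 ± 0.31 in sir3D (0.198%) and by 3.67 ± 0.31 in sir4D (0.144%). The adjusted p-values were 7.33e-05, 0.000108 and 4.47e-05. COS12 was the 1 member of 6 that passed in each of these comparisons. The difference was 3.68 ± 0.31 (adjusted p = 0.000515) in Sir3_3xT7, where 0.0898% of all genes passed as higher, and 3.40 ± 0.31 (0.00121) in Sir3_3xHA, where 0.0719% did. Again no other member passed. All of these comparisons share the 4 wild-type series.

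The series means of COS12 in the deletions and the tagged strains did not overlap those of the wild types. This is a description, since the share of all genes that separate so was not computed. On the centred log2 scale the 6 deletion series lay at 0.21 to 0.53, the 4 tagged series at 0.09 to 0.54 and the 4 wild-type series at -3.82 to -2.52. Within the separate batch the deletion and tagged strains exceeded the wild types by 2.72 to 3.17, and within the shared batch by 4.07 to 4.19, so the difference was present in each batch. The tagged strains and the deletions were not told apart by COS12: their difference was -0.03 ± 0.23 (adjusted p = 0.983), in a comparison in which 0.629% of all genes passed.

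Averaged over the 3 deletions, COS12 stood 3.57 ± 0.23 above the wild types (adjusted p = 2.99e-06) and 0.234% of all genes passed as higher. The median difference of the 6 members was 1.11, against -0.01 for all genes tested. That median takes in COS4, which met the filter through libraries of other strains. COS1, COS4 and COS7 may also share reads, so the members are not separate observations. The 5 members besides COS12 did not pass: COS4 at 1.26 ± 0.30 (adjusted p = 0.114), COS1 at 1.24 ± 0.55 (0.999), COS7 at 0.97 ± 0.28 (0.280), COS8 at 0.61 ± 0.15 (0.121) and COS10 at -0.09 ± 0.14 (0.999). COS12 and COS10, the members with the most distinct sequence, thus gave the highest and the lowest value. The difference between them, COS12 minus COS10, was 2.30 (SD 0.13, n = 6) in the deletion series and -1.36 (SD 0.59, n = 4) in the wild-type series on the centred log2 scale. The series of the groups did not overlap in this measure. It is given as a description, with no test, since the pair was chosen after its values were seen.

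**Figure D3:**
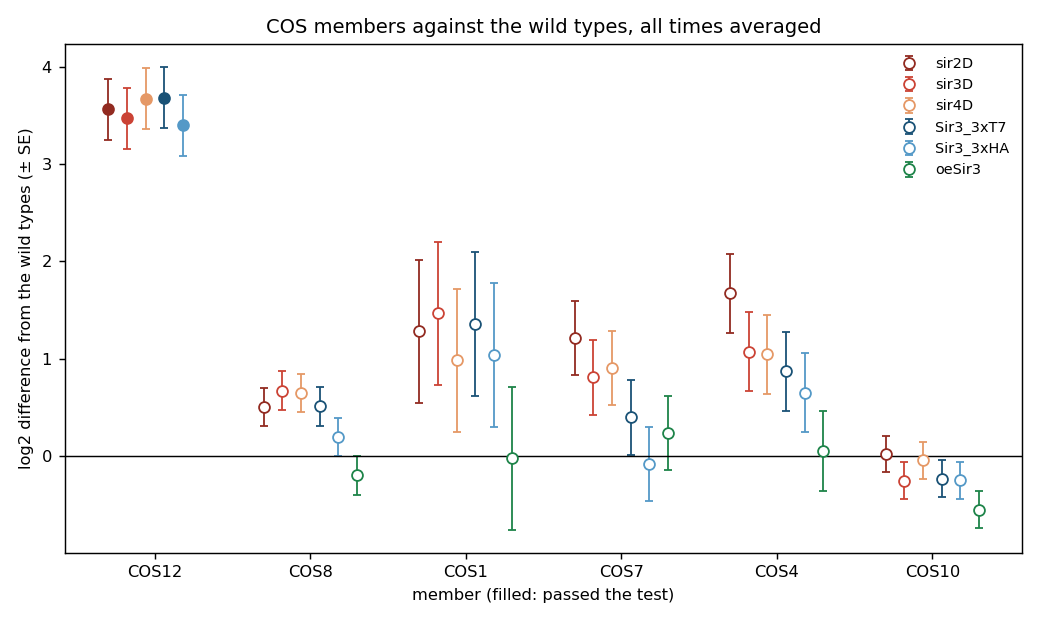
Difference of each tested member from the wild types (y axis, log2, ± SE from limma) in the 6 other strains, with all times averaged and filled points where the test was passed. COS12 lies between 3.40 and 3.68 in the deletion and tagged strains, and COS10 between -0.55 and 0.02 in all 6; COS12 in oeSir3 is left out, since it was at 0 there.

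COS1 differed most between the batches. In wild-type series its median was 58.5% and 24.0% of the median gene in wt1 and 167% and 62.0% in wt2, in replicates 1 and 2. In the deletions the medians were 277% and 107% in sir2D, 329% and 108.5% in sir3D and 136% and 127% in sir4D. In the tagged strains they were 414% and 81.9% in Sir3_3xT7 and 243.5% and 97.3% in Sir3_3xHA. Replicate 1 had the higher median in each of these strains, and the ranges of the wild types and the deletions overlapped. Within the separate batch COS1 was higher than the wild types by 1.12 in sir2D and 1.42 in sir3D, and within the shared batch by 1.44 in sir2D, 1.50 in sir3D and 1.75 in sir4D. With batch as a term in the fit the deletions were higher by 1.50 ± 0.17 and passed (adjusted p = 0.000257), and so did COS1 in sir2D, sir3D, sir4D and Sir3_3xT7. Without the term the deletions were higher by 1.24 ± 0.55, while the wild types themselves differed by -1.21 ± 0.85 (wt1 minus wt2). Neither of these passed. The batch is inferred and goes along with replicate number and depth, so what the term takes out cannot be told apart. With 28.9% of its 50-base windows found once in the genome, reads counted for COS1 may not all be its own.

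COS8 had the most reads of the family, with a median of 103 per library. Its level was 125% to 636% of the median gene in the deletions (median 209%, n = 42) and 66.3% to 548% in the wild types (median 139%, n = 28), and these ranges overlapped. The difference of 0.61 ± 0.15 lay under the threshold of 1, and so did those in the single strains, from 0.20 ± 0.20 in Sir3_3xHA to 0.67 ± 0.20 in sir3D. During growth COS8 in the deletions was higher by 0.64 ± 0.13 with an adjusted p of 0.0346 by limma, and it missed only the size threshold. The wild types themselves differed by -0.80 ± 0.23 (wt1 minus wt2, adjusted p = 0.995, where 0.0719% of all genes passed), so the wild types lay further apart than the deletions lay from their mean, and neither difference passed.

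COS7 ran from 9.88% to 177% of the median gene in the deletions (median 37.8%) and from 3.70% to 102% in the wild types. The 6 deletion series means, from -1.44 to -0.47 on the centred log2 scale, all lay above the 4 of the wild types, from -2.83 to -1.48, but the gap between the groups was narrow. The share of all genes with such a separation was not computed, so it is given as a description. The difference was 1.21 ± 0.38 in sir2D, 0.81 ± 0.38 in sir3D and 0.90 ± 0.38 in sir4D, none of which passed. The wild types themselves differed by -0.96 ± 0.44 (wt1 minus wt2), which did not pass. That is about as far apart as the deletions together lay from the wild-type mean (0.97 ± 0.28).

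COS4 had few reads, with a median of 2 and a maximum of 26 per library. It was at 0 in 20 of 28 wild-type libraries and in 2 of 42 deletion libraries. During growth, which pools midlog and both doublings, COS4 was at 0 in all 12 wild-type libraries and above 0 in 17 of 18 deletion libraries, with 0 to 18.9% of the median gene. In that comparison COS4 passed with 1.66 ± 0.30 (adjusted p = 0.0141) beside COS12 (3.10 ± 0.25, 2.03e-05), where 0.377% of all genes passed as higher. In no wild-type library did COS4 exceed the filter value of 0.15, and its highest coverage there was 0.0547. COS4 entered the tests through 10 libraries of other strains, so its passes against the wild types are not independent of the filter. The fitted size for COS4 depends on the pseudocount, since the wild types were listed at 0, and it turned to -0.47 where the deposited value for no coverage was kept. Without wt1 replicate 2 its adjusted p was 0.0859, without wt2 replicate 2 it was 0.0549 and without sir4D replicate 2 it was 0.0505. Over all times COS4 passed in the deletions together with a batch term (1.31, adjusted p = 0.0447), on the spike-in scale (1.61, 0.0347) and with a pseudocount of 0.01 (2.20, 0.0241). It also passed without wt2 replicate 1, at 1.68 (0.00348) in the deletions together and 2.09 (0.00591) in sir2D.

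COS10, at the right end of chromosome XIV, was detected in every library, and no strain passed against the wild types. Its level ran from 9.52% to 54.5% of the median gene in the deletions (median 23.0%) and from 5.26% to 39.7% in the tagged strains (median 20.3%), against 4.35% to 43.3% in the wild types (median 29.1%). The difference from the wild types was 0.02 ± 0.19 in sir2D, -0.25 ± 0.19 in sir3D and -0.04 ± 0.19 in sir4D. Of the genes with values COS10 is the outermost on its arm and, like COS12, it has a sequence of its own.

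In oeSir3 COS12 was listed at 0 in all 14 libraries, so no fold is given; the test placed it lower than the wild types (adjusted p = 0.0201) where 4.76% of all genes passed as lower. It did not pass without wt1 replicate 1, without wt2 replicate 1 or without either oeSir3 replicate, nor on the spike-in scale or with a pseudocount of 0.1. It turned to 0.46 where the deposited value for no coverage was kept, and within the shared batch, the only one that holds oeSir3, the difference was -0.76. In all, 9 of 16 alternatives kept the call. No other member passed. COS10 ran from 3.16% to 35.8% of the median gene (median 13.7%), and its difference of -0.55 ± 0.19 had an adjusted p of 0.0720. Both oeSir3 series means of COS10, at -2.45 and -2.23 on the centred log2 scale, lay below the 4 of the wild types, at -2.10 to -1.44. How many of all genes separate in this way was not counted, so no result about COS10 is drawn from it. YGL262W, the gene next to COS12 on the inner side, was also listed at 0 in all 14 oeSir3 libraries. Strain background, carbon source and Sir3 level all differ between oeSir3 and the wild types and cannot be told apart.

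Neighbouring genes were examined on the side away from the chromosome end; DDI2, DDI3 and MPH2, beside COS1, COS4 and COS7, did not pass the filter on low values and have no test. YGL262W ran from 5.26% to 243% of the median gene in the deletions (median 49.3%) and from 0 to 17.9% in the wild types (median 2.93%), and the difference of 2.89 ± 0.22 passed (adjusted p = 1.20e-05). It also passed in both tagged strains, at 2.89 ± 0.30 and 2.52 ± 0.30. In the wild types YGL262W had a median of 1 read and was at 0 in 8 of 28 libraries, so these sizes depend on the pseudocount. Whether YGL262W met the filter on low values only through the strains where it is high was not counted. Its passes may therefore not be independent of the filter. AIF1, the homologue of the apoptosis-inducing factor beside COS10, did not pass in the deletions (0.08 ± 0.12), and in oeSir3 it was lower, at -4.24 ± 0.16 (adjusted p = 3.18e-08). ARN2, a siderophore transporter beside COS8, stood at -0.02 ± 0.27 in the deletions and at -3.30 ± 0.36 in oeSir3 (adjusted p = 0.000155). In oeSir3 the inner neighbours of COS8 and COS10 were therefore lower while COS8 (-0.20 ± 0.20) and COS10 did not pass.

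In the authors' table, whose genome build is not given, the start sites of COS7, COS12, COS8, COS4, COS3 and COS1 lie 1890, 2850, 6480, 6510, 7320 and 8400 bases from the left end of their chromosomes, and no start site of that table lies outside COS7, COS12 or COS10. Of the members on left arms COS7 lies closest to its end, with a difference of 0.97 in the deletions, and COS12 is next with 3.57. On its right arm COS10 is the last gene with values, and its difference was -0.09.

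Time was the other axis of the design. On the spike-in scale, which sets each library against S. pombe RNA added by mass of total RNA, the wild-type median gene fell from 1.15 ± 0.64 (SD, n = 4) at midlog to 0.224 ± 0.074 at starvation and was back at 0.988 ± 0.271 after 2 doublings. Against that background 4 of 6 members fell from midlog to starvation and passed, where 71.9% of all genes passed as lower; the share of members is close to that of all genes. The members' median change was -1.63, against -1.96 for all genes. In these bulk samples, fewer cells that express a gene and less RNA per cell cannot be told apart.

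COS12 fell furthest of the members. In wt1 it was at 60% and 36.1% of the median gene at midlog in replicates 1 and 2, and in wt2 at 47.6% and 10.1%. At starvation 3 of the 4 libraries were at 0 and wt2 replicate 2 was at 2.45%, so all 4 midlog libraries lay above all 4 starved ones. This separation is a description, since the share of all genes that show it was not computed. On the spike-in scale the change was -3.43 ± 0.51 (adjusted p = 3.13e-08). COS12 then stayed at 0 to 4.35% at 5 min and 0 to 3.45% at 30 min, reached 2.55% to 9.09% at 90 min and 4.30% to 17.1% after 1 doubling, and stood at 7.41% to 15.2% after 2 doublings. These late values rest on 1 to 9 reads per library.

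After 2 doublings the wild-type COS12 level of 9.79% (mean, n = 4) was thus below that of 38.4% at midlog, and the ranges overlapped only through wt2 replicate 2. The change from midlog to 2 doublings was -1.48 ± 0.51 on the spike-in scale and did not pass (unadjusted p = 0.00484, adjusted p = 1), in a comparison in which 0.0359% of all genes passed. In the deletions COS12 was at 140% of the median gene both at midlog (SD 34.3, n = 6) and after 2 doublings (SD 14.1, n = 6). The change from midlog to 2 doublings differed between deletions and wild types by 1.52 ± 0.36 on the centred scale (adjusted p = 0.586), where 0.018% of all genes passed, so the difference was not established by this test. Without wt2 replicate 2 it was 1.98 ± 0.29 and passed (adjusted p = 0.00124).

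**Figure D4:**
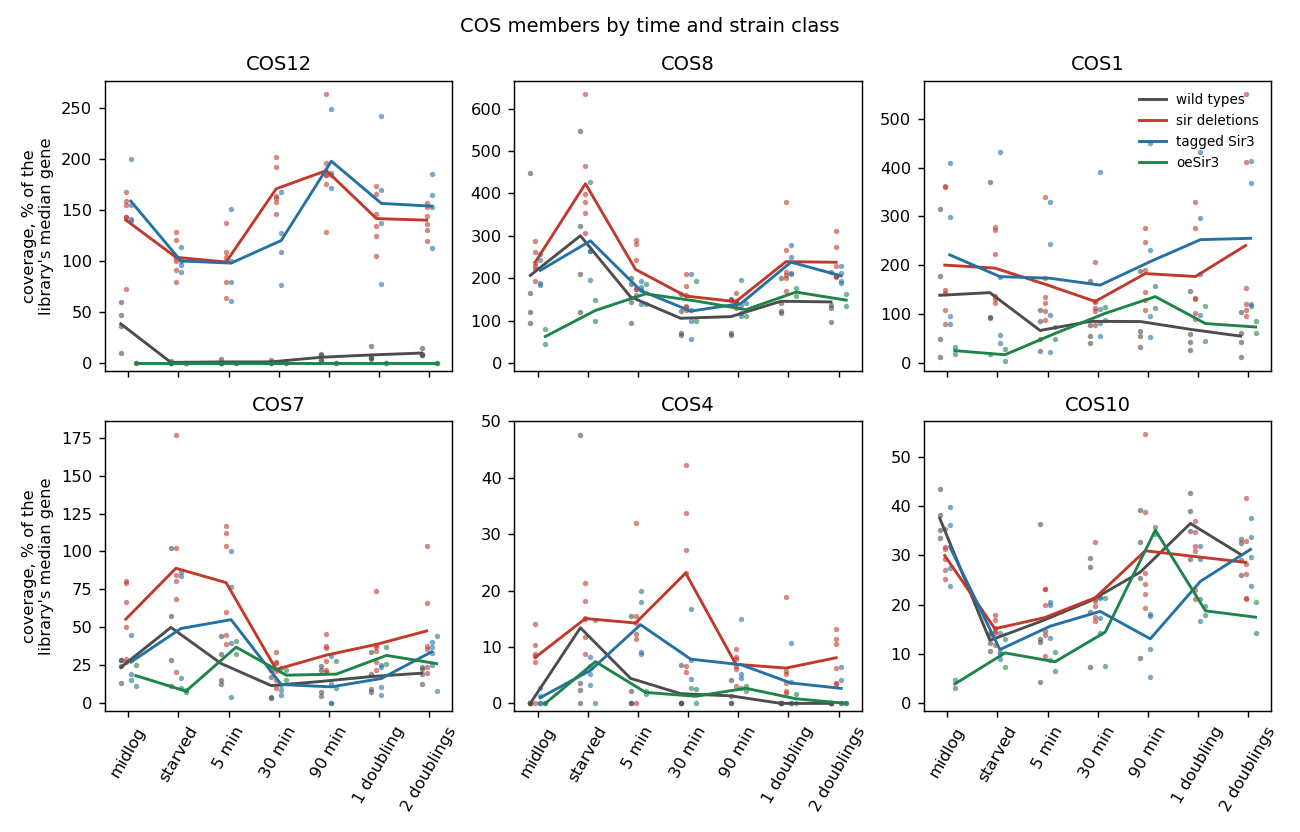
Coverage of the 6 tested members as a percentage of the library's median gene (y axis, a scale for each panel) at the 7 times, with a point for each library and a line through the mean of each strain class. COS12 in the wild types falls from 38.4% at midlog to 0.61% at starvation and reaches 9.79% after 2 doublings, while in the deletions it stays between 99.1% and 189%.

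In the deletions COS12 was high at every time. The mean was 140% of the median gene at midlog, 104% at starvation, 99.1% at 5 min, 171% at 30 min and 189% at 90 min. The excess over the wild types passed in each of 3 states: 3.10 ± 0.25 during growth, 2.99 ± 0.21 at starvation (adjusted p = 1.53e-05), where 0.108% of all genes passed as higher, and 4.22 ± 0.31 at 5 to 90 min after release (1.37e-05), where 0.144% did. At starvation 3 of 4 wild-type libraries were at 0 and the pseudocount sets their value, so the sizes of these excesses are not comparable between states. Where the deposited value for no coverage was kept, the excess at starvation was 1.30 and did not pass (adjusted p = 0.458). In the starvation response itself, which is starvation minus the mean of the growing times, none of the 6 members passed between deletions and wild types, in a comparison in which 0.503% of all genes did by limma. At an unadjusted p under 0.05 there were 2, COS1 at -0.62 ± 0.25 and COS4 at -1.31 ± 0.29 (adjusted p = 0.0725).

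COS10 also fell at starvation in the wild types and was higher again later. In wt1 it was at 43.3% and 35.0% of the median gene at midlog and in wt2 at 38.1% and 33.5%, against 10.7%, 13.8%, 14.3% and 12.3% at starvation, with no overlap. The share of all genes that separate so was not computed, and the separation is given as a description. On the spike-in scale COS10 changed by -2.77 ± 0.53 (adjusted p = 5.54e-06) at starvation, and centred on the median gene by -0.75. It was higher than at starvation by 1.46 ± 0.53 at 30 min (0.0146), where 52.8% of all genes passed as higher, and by 1.79 ± 0.53 at 90 min (0.00272), where 57.1% did, and it was the 1 member to pass at these times. Centred on the median gene COS10 changed by -0.016 at 30 min, and on the spike-in scale no member passed at 30 min without wt1 replicate 2 or without wt2 replicate 2, or at 90 min without wt1 replicate 2. At 5 min no member passed, in a comparison in which 11.5% of all genes did in either direction, and none had an unadjusted p under 0.05.

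After 1 doubling 3 members passed as higher than at starvation, where 68.2% of all genes did: COS10 by 2.66 ± 0.53 (adjusted p = 1.16e-05), COS12 by 1.56 ± 0.51 (0.00562) and COS8 by 1.21 ± 0.45 (0.0152). After 2 doublings the same 3 passed, where 69.4% of all genes did: COS10 by 2.47 ± 0.53, COS12 by 1.95 ± 0.51 and COS8 by 1.22 ± 0.45. Without wt1 replicate 2 only 1 member passed after 1 doubling, and COS12 there had an adjusted p of 0.0543, or 0.0657 without wt2 replicate 1. COS8 after 2 doublings had 0.166 without wt1 replicate 2 and 0.141 without wt2 replicate 2. The members' median was 1.24 and 1.08 at these times, against 1.88 and 1.92 for all genes. Centred on the median gene COS8 changed by -0.76 and -0.80, so its rise held on the spike-in scale only. COS12 as a percentage of the median gene ran from 0 to 2.45% at starvation, from 4.30% to 17.1% after 1 doubling and from 7.41% to 15.2% after 2, with no overlap with starvation. How many of all genes separate so was not counted, and this too is a description. The centred log2 changes of COS12, at -0.41 and -0.072, have the opposite sign and rest on the pseudocount, since 3 of 4 starved libraries were at 0.

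COS8 and COS1 fell at starvation on the spike-in scale. On that scale the coverage of COS8 was 1.23, 1.51, 1.32 and 2.79 at midlog and 0.580, 0.298, 0.629 and 0.840 at starvation (wt1 replicates 1 and 2, then wt2 replicates 1 and 2), with no overlap. The median gene did not overlap either, at 0.294 to 1.69 at midlog and 0.115 to 0.275 at starvation. No result about COS8 is therefore drawn from the separation. The change was -1.50 ± 0.45 for COS8 (adjusted p = 0.00277) and -1.76 ± 0.60 for COS1 (0.00743). COS8 had an adjusted p of 0.0624 without wt1 replicate 2, and COS1 had 0.0549 without wt1 replicate 1 and 0.0642 without wt2 replicate 2. Centred on the median gene both turned to higher, by 0.52 and 0.25, and neither passed. COS7 at -1.14 ± 0.68 and COS4 at 0.55 ± 0.56 did not pass on the spike-in scale, and COS4 there rests on starved libraries, since COS4 was at 0 in all 4 wild-type midlog libraries.

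**Figure D5:**
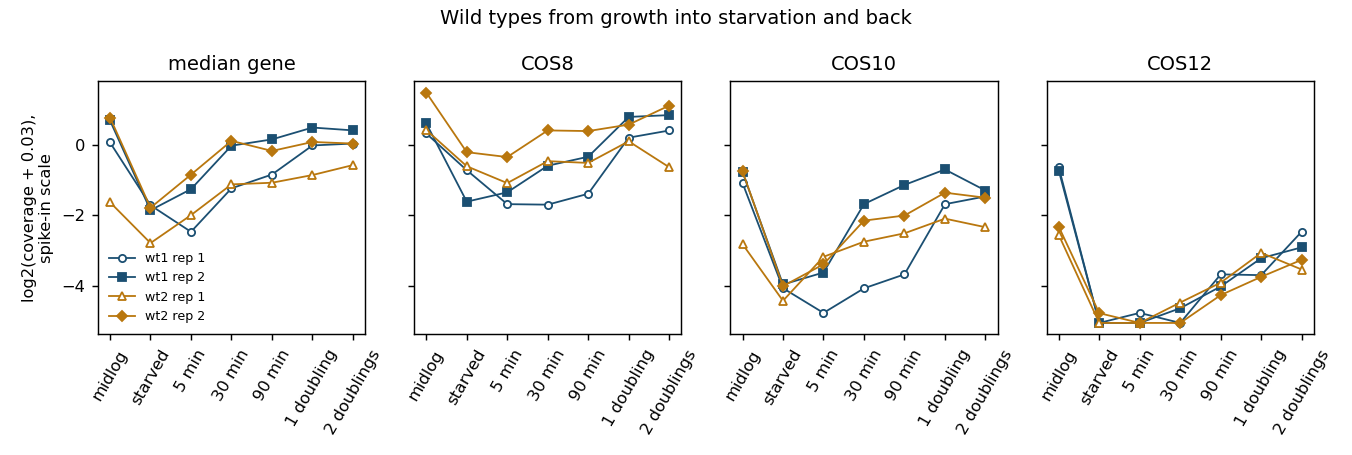
Spike-in scaled level, log2(coverage + 0.03) on the y axis, of the median gene, COS8, COS10 and COS12 at the 7 times in the 4 wild-type series. All 4 are lower at starvation than at midlog, and COS12 lies at or near the floor set by the pseudocount from starvation to 30 min.

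Related genes were counted beside the COS family. Of the 10 genes of the DUP240 family, membrane proteins distantly related to the COS proteins, none passed in the deletions (median -0.24), the tagged strains or oeSir3, and 7 of 10 were lower at starvation, where 71.9% of all genes were. Of 33 genes of multivesicular body sorting and of the ubiquitin ligase Rsp5 and its adaptors, the machinery that COS proteins assist, none passed in the deletions (median 0.05) or the tagged strains. In oeSir3 the Rsp5 adaptors SSH4 (1.41 ± 0.19) and ECM21 (1.10 ± 0.26) were higher, where 4.35% of all genes were. Of 118 tested genes within 20 kb of a chromosome end, members left out, 6 were higher and 2 lower in the deletions (median 0.07), where 0.234% of all genes were higher and 0.701% lower, with YGL262W and AAD15, a gene of the aryl-alcohol dehydrogenase family (2.16 ± 0.33), the highest.

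Profiles were compared over the 56 means of strain and time on the centred scale, as a description; these points share libraries and strains. The mean profile of the 6 tested members was most like those of AAD15 (Pearson r = 0.86), IME4, the mRNA methyltransferase gene (0.85), YGL262W (0.77), YIR042C (0.71) and YPS5 (0.67). AAD15 (0.79), IME4 (0.77) and YGL262W (0.76) were also closest to COS12 alone, and AAD15 (0.66) and IME4 (0.59) to COS1. None of the genes named was among the 5 closest to COS4, COS7, COS8 or COS10, so the mean profile does not stand for every member. Among the members r was highest for COS7 with COS8 (0.70), and for COS1 with COS8 and with COS12 (0.69 each). COS10 had r of 0.04 to 0.26 with the other 5 members.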

How the data were processed

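For each coding sequence the authors deposited the log2 median of its read coverage after S. pombe spike-in scaling, as the design text and the name of the table state. Per the labels' protocols, S. pombe total RNA was mixed in by mass before stranded mRNA libraries were prepared, with a pair of kits in use across the series. The submitters' processing notes name CASAVA 1.7.0; not given in the sources used here are the aligner, the S. cerevisiae build and the treatment of reads that match several genes. Each library holds 1 value that stands for coverage of 0, and it was set to 0. Linear coverage fell on a grid of reads, which gave reads per gene (tolerance 0.02 reads); values of 1 to 3 reads move by single reads. The plan expected another scale, so tests used log2(coverage + 0.03), with genes above 0.15 in at least 4 libraries (5567 of 6319).

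Tests used limma 3.58.1 in R 4.3.3, two-sided, with p-values adjusted by Benjamini-Hochberg across all 5567 tested genes, an adjusted p under 0.05 and an absolute log2 change of at least 1, in 21 comparisons. Time contrasts used all 112 libraries on the spike-in scale (56 residual degrees of freedom) and take no account of the link between libraries of 1 series. Strain contrasts used the 16 series (8 residual degrees of freedom) after centring. Sequences and neighbours came from RefSeq R64 through Biopython 1.88; start sites on chromosome 11 of the table were offset from R64, so no R64 coordinates are given. Tables and plots used Python 3.11.15, numpy 2.4.6, pandas 2.3.3, scipy 1.17.1 and matplotlib 3.10.9. The scripts were tested on simulated data. The members and gene lists were chosen with earlier results of these data known. Named genes were all members, the SIR genes, the inner neighbour of each tested member (where it passed the filter), the 5 genes most like the members' mean profile, and at most 2 called genes each way per list; the outer neighbour of COS8 was computed and is not described. Alternatives covered the pseudocount, the filter, the value for 0, shallow libraries, the scale, a batch term, the replicate block and each series left out. The comparisons of regrowth, of 5 to 90 min, of tagged strains with deletions, of COS12 with COS10 (whose exact test is not used, the pair being chosen from its values), and the use of the nearest wild type alone were added after seeing the data.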

Additional observations from a re-analysis of the deposited data

Results flagged for a closer look

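Of 70 groups of values of the tested members and of COS9 checked for 1 sample far from the others on the centred log2 scale, 3 held one; chance gives about 1 in 20 groups. COS12 after 1 doubling was -2.21 in wt2 replicate 1, against -3.84 to -3.69 in the other 3 wild-type libraries. COS4 at starvation was -0.77 in wt2 replicate 1, against -3.21 to -2.94 in the other 3. The COS7 mean over all times was -0.47 in sir2D replicate 1, against -1.44 to -1.14 in the other 5 deletion series.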

How the results depend on the processing

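Of 336 recomputed counts of members that passed, 294 stayed within 1.5 times the reported count. COS12 passed in every alternative in sir2D, sir3D, sir4D, both tagged strains, and the deletions over all times (2.62 to 4.30), while growing and at 5 to 90 min; at starvation it passed in 19 of 20 (1.30 to 4.34). With a batch term the count was 2 in sir2D, sir3D, sir4D, Sir3_3xT7 and at 5 to 90 min, with COS1 joining, and 3 in the deletions over all times, with COS1 and COS4. With a pseudocount of 0.01 it was 2 in the deletions over all times and 2 at 90 min; with 0.1 it was 0 in oeSir3, 0 at 30 min and 1 in the growing deletions. The growing deletions also gave 1 under a stricter filter and against the nearest wild type alone. With the deposited value for coverage of 0 kept, the count was 0 in oeSir3, 1 in the growing deletions, 0 in the starved deletions and 1 in the starvation response, and COS12 after 1 doubling turned to -0.10, COS12 in oeSir3 to 0.46 and COS4 in the growing deletions to -0.47. With strains compared on the spike-in scale in place of centring, the count was 0 in oeSir3 and 2 in the deletions over all times. Time contrasts centred on the median gene gave 2 members at starvation, 4 at 30 min, 3 at 90 min and 1 after 2 doublings, with COS1 (0.25) and COS8 (0.52) at starvation, COS10 at 30 min (-0.016), COS8 (-0.76) and COS12 (-0.41) after 1 doubling and COS8 (-0.80) and COS12 (-0.072) after 2 doublings turning; the COS12 signs rest on the pseudocount, with 3 of 4 starved libraries at 0. Members that passed on that scale but not on the spike-in scale were lower (COS4, COS7 and COS8 at 30 and 90 min, COS12 at 30 min, COS4 and COS7 after 1 doubling, COS4 after 2), except COS4 at starvation, which was higher (2.56). Beyond the construction of each alternative, the cause was not tested. Leaving out 1 series at a time gave 0 to 1 members in oeSir3, 1 to 2 in sir2D, 1 to 2 in the deletions over all times and 1 to 2 while growing, 0 to 1 for the starvation response, 0 to 2 for regrowth, 0 to 2 at 30 min, 0 to 2 at 90 min, 1 to 4 after 1 doubling, 2 to 3 after 2 doublings and 3 to 4 at starvation. COS12 in oeSir3 did not pass without wt1 replicate 1, wt2 replicate 1 or either oeSir3 series, and COS4 passed in the deletions over all times without wt2 replicate 1 (1.68, adjusted p = 0.00348 by limma).

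Replicate numbers were not taken as pairs: deviations of same-numbered libraries correlated at -0.43 to 0.74 between strains at 1 time (median 0.26) and at -0.08 to 0.85 between times of 1 strain (median 0.52). With the replicate block the count was 2 at 30 min, with COS1, and 3 at 90 min, with COS1 and COS12, 5 at starvation and 4 after 1 doubling, and no strain count changed. Depth limits COS3, COS4 and wild-type COS12, and shared sequence limits COS1, COS3, COS4 and COS7.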
